A study of Homo sapiens with 36 samples.

Results

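The effect of NR4A2 depletion on LPS-stimulated monocytic cells was examined in 6 RNA-seq libraries out of the 36 in the series. They were all the libraries labelled as THP-1 cells at 5% CO2 with LPS that carried either the hairpin against NR4A2 (shNR4A2, 3 libraries) or the non-target hairpin (shNT, 3 libraries). THP-1 is a human monocytic line of leukaemic origin. Both lines had been transduced with lentivirus to express their hairpin stably, were kept for 4 h in medium equilibrated to 5% CO2, and received LPS at 2.5 µg/ml for the last 2 h. The other libraries came from the same lines without LPS, from both lines at 10% CO2, and from a line carrying a hairpin against NR4A3 (shNR4A3), with 3 libraries in each of the 12 conditions. The labels give 1 line for each hairpin, so that an effect of the knockdown and a difference between the lines cannot be told apart. They do not say whether the 3 libraries of a condition were separate cultures, but figure captions of the study's paper give n = 3 individual experiments for the RNA-seq data. The p-values measure the spread between these libraries and not a spread between independently made lines.

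NR4A2 (Nurr1) is an orphan nuclear receptor and, with NR4A1 (Nur77) and NR4A3 (NOR1), forms a family of immediate-early transcription factors. These receptors have no known need for a ligand, bind the NBRE element as monomers, and are switched on within hours when LPS engages TLR4 on monocytes and macrophages. TLR4 signals through NF-kB and MAP kinases to cytokine genes and through type I interferon to antiviral and antigen presentation genes, and NR4A receptors are known to restrain NF-kB output in several cell types.

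Counts of the 6 libraries summed to 17361839 to 21602737, and 26377 to 30447 genes had at least 1 count, the highest number in shNT replicate 1. Of the gene lists for other cell types, the T and NK list summed to 229 to 263.5 CPM, that is counts scaled to a common library total, in these libraries. The B list summed to at most 20.36 CPM, the epithelial list to 4.114 CPM and the erythroid and platelet list to 0.2564 CPM. The 12 monocyte markers summed to 777.1 to 1506 CPM. Of the monocyte markers 11 were tested, and LYZ, VCAN and CSF1R were higher in shNR4A2 cells (27.3% called, against 6.21% of all genes). All 11 had a positive change, with a median log2 fold change of 0.457. With the replicate number as a block in the test, 7 were higher, against 13.4% of all genes. The 12 markers summed to 777.1 to 949.6 CPM in shNT and 1167 to 1506 CPM in shNR4A2 libraries. FCN1 was too low to be tested. The fibroblast and endothelial list summed to 272.8 to 358.9 CPM in shNT and 437 to 557.9 CPM in shNR4A2 libraries. Of its 4 tested genes 1 was called (25%), namely PECAM1, an adhesion molecule that monocytes also carry. The T cell markers CD3D, CD3E and CD3G were too low to be tested, and CD2 and HBA1 had no count in any of the 6 libraries. In bulk libraries such as these, fewer cells of a type and less RNA per cell cannot be told apart.

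NR4A2 transcripts, the target of the hairpin, were reduced and not absent. NR4A2 was at 72.7, 84.4 and 61.6 CPM with the non-target hairpin and at 25.9, 31.9 and 18.2 CPM with the hairpin against NR4A2. The groups did not overlap, and the highest shNR4A2 library stood below the lowest shNT library. The log2 fold change from edgeR's quasi-likelihood test was -1.52 (SE 0.20, adjusted p = 0.00291), with 34.9% of the shNT level remaining. Without LPS, NR4A2 stood at 3.69 ± 0.658 CPM in shNT and 1.95 ± 0.345 CPM in shNR4A2 cells (SD, n = 3), below every library with LPS. The difference between the lines in the absence of LPS was -0.91 (SE 0.23, adjusted p = 0.0337). At 10% CO2 with LPS the means were 60.5 ± 3.69 and 19.1 ± 1.08 CPM (SD, n = 3), a difference of -1.67 (SE 0.09, adjusted p = 3.28e-07). The difference of these effects did not pass the test, either for LPS (log2 difference -0.60, SE 0.30, adjusted p = 0.999925 in edgeR) or for CO2 (-0.13, SE 0.23, adjusted p = 0.999983 in edgeR). NR4A2 lies on chromosome 2 (156324432 to 156342348, GRCh38).

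The other 2 receptors of the family did not pass the test. NR4A1 measured 47.4, 38.4 and 30.6 CPM in shNT cells and 35.3, 35.7 and 29.4 CPM in shNR4A2 cells. These libraries overlapped between the lines, and the log2 fold change was -0.21 (SE 0.15, adjusted p = 0.493). NR4A3 stood at 57.5, 58 and 61.1 CPM in the shNT libraries and 66.3, 59 and 70.7 CPM in the shNR4A2 libraries. These also overlapped, with 0.15 (SE 0.10, adjusted p = 0.407). At 10% CO2 with LPS, NR4A3 was higher in shNR4A2 cells, with 102.3 ± 15.4 against 68.8 ± 5.76 CPM (SD, n = 3) and 0.57 (SE 0.11, adjusted p = 0.00295). Per gene length, at 5% CO2 with LPS, shNT cells held 62.7 ± 11.7 TPM (counts per length given for the gene with the counts, scaled to a common library total) of NR4A2, 31.7 ± 0.708 TPM of NR4A3 and 18.1 ± 4.13 TPM of NR4A1. In shNR4A2 cells the order was NR4A3 at 34 ± 1.86 TPM, NR4A2 at 21.2 ± 6.78 TPM and NR4A1 at 15.1 ± 2.11 TPM (SD, n = 3), where NR4A2 and NR4A1 did not differ beyond their spread. By CPM, which takes no account of length, NR4A1 (33.45) stood above NR4A2 (25.35) in these libraries, so their order depends on the length used.

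**Figure D1:**
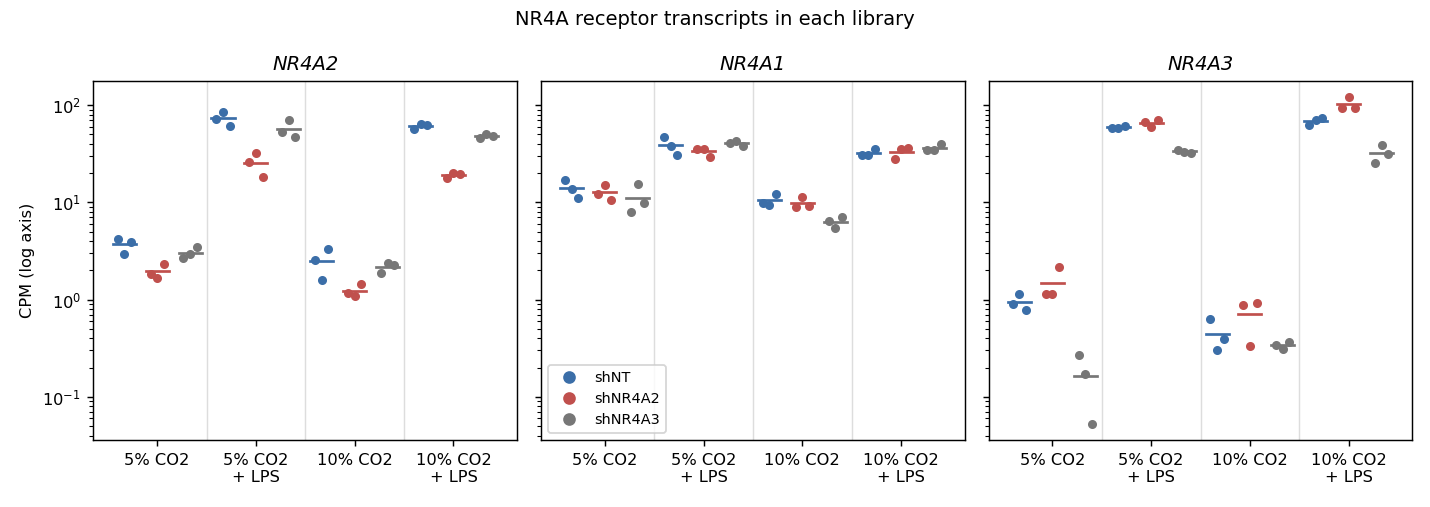
Level of NR4A2, NR4A1 and NR4A3 in each of the 36 libraries, in CPM on a log axis, by condition and line. Points are libraries and bars are means of 3. The 3 shNR4A2 libraries at 5% CO2 with LPS hold 18.2 to 31.9 CPM of NR4A2, below the 61.6 to 84.4 CPM of the shNT libraries beside them and above every library without LPS.

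Across all genes, 1101 of 17720 tested (6.21%) differed between shNR4A2 and shNT cells at 5% CO2 with LPS at an adjusted p under 0.05 (edgeR, Benjamini-Hochberg). More of them were higher (681, 3.84%) than lower (420, 2.37%) in shNR4A2 cells. Of the 1101 genes, 392 differed by at least 2-fold, 308 higher and 84 lower, and the median fold of called genes was 1.89 for the higher and 1.58 for the lower ones. Libraries with the same replicate number deviated together, and with the number as a block the test called 4369 genes (24.7%), of which 2367 (13.4%) were higher and 2002 (11.3%) lower. All 1101 genes were among them with the same direction. In every one of the 1101 genes the shNR4A2 and shNT libraries did not overlap, so a lack of overlap does not set any called gene apart. Leaving out shNT replicate 1, 2 or 3 lowered the count to 540, 455 and 430, and leaving out shNR4A2 replicate 1 lowered it to 595. Without shNR4A2 replicate 2 or 3 it was 1543 and 848.

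**Figure D2:**
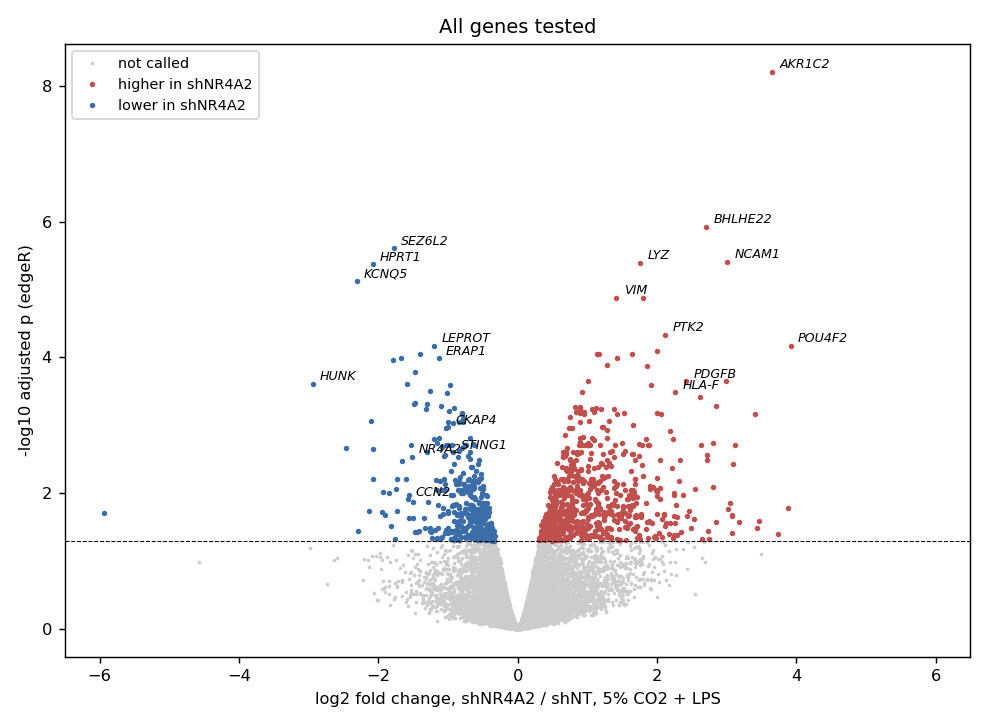
Log2 fold change between shNR4A2 and shNT cells at 5% CO2 with LPS (x axis) against -log10 of the adjusted p from edgeR (y axis), 1 point per gene tested, with the threshold of 0.05 as a dashed line. More points past the line lie to the right (681) than to the left (420), AKR1C2 has the smallest adjusted p, and NR4A2 sits among the lower genes at -1.52.

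The genes with the smallest adjusted p among the higher ones were AKR1C2, BHLHE22, NCAM1, LYZ, VCAN, VIM, PTK2, POU4F2, TIFAB and RPS6KA2. AKR1C2 encodes an aldo-keto reductase that acts on steroids. AKR1C2 was at 73.4, 76.3 and 72.6 CPM with the non-target hairpin and at 944, 914 and 923 CPM with the hairpin against NR4A2. No library came near the other group, and the log2 fold change was 3.65 (SE 0.09, adjusted p = 6.19e-09). Its close relatives AKR1C1 (1.43, SE 0.12, adjusted p = 0.000102) and AKR1C3 (1.18, SE 0.16, adjusted p = 0.00195) were also higher, and since these genes are near-identical in sequence, how their reads were divided is uncertain. Both relatives lie outside the naming rule and were picked with their values in view. BHLHE22, a basic helix-loop-helix transcription factor of neurons, followed with 2.71 (SE 0.12, adjusted p = 1.18e-06). BHLHE22 measured 24.7, 18.5 and 23.1 CPM in shNT cells and 142, 146 and 143 CPM in shNR4A2 cells. It shares its locus with BHLHE22-AS1 (2.99, SE 0.27, adjusted p = 0.000225), and as the strand setting of the counts is not given in the sources used here, reads of the gene and its antisense partner cannot be told apart.

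Several of these genes encode surface, matrix and cytoskeletal proteins. NCAM1, the adhesion molecule CD56, changed by 3.01 (SE 0.16, adjusted p = 3.87e-06). NCAM1 stood at 5.39, 4.31 and 5.7 CPM in the shNT libraries and 35.1, 46.5 and 42.3 CPM in the shNR4A2 libraries. Lysozyme (LYZ), a secreted product of monocytes, changed by 1.76 (SE 0.09, adjusted p = 4.02e-06). LYZ was at 82.5, 78 and 83.1 CPM with the non-target hairpin and at 293, 249 and 278 CPM with the hairpin against NR4A2. The matrix proteoglycan versican (VCAN, 1.80, SE 0.11, adjusted p = 1.32e-05), the intermediate filament vimentin (VIM, 1.42, SE 0.09, adjusted p = 1.32e-05) and focal adhesion kinase (PTK2, 2.12, SE 0.15, adjusted p = 4.68e-05) were higher as well. In each of these 5 genes all libraries of shNR4A2 cells lay above all libraries of shNT cells, and none of the 1101 called genes had overlapping libraries.

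The 10 largest increases among genes with a mean of at least 1 CPM were those of POU4F2, C22orf42, AKR1C2, CYP26B1, HEY1, CALCRL, NCAM1, BHLHE22-AS1, ENSG00000261269 and HOXB7. Apart from AKR1C2 and NCAM1 these were low transcripts. POU4F2, a POU-domain factor known from retinal neurons, rose by 3.92 (SE 0.30, adjusted p = 6.80e-05). POU4F2 measured 0.308, 0.256 and 0.487 CPM in shNT cells and 4.56, 5.69 and 5.94 CPM in shNR4A2 cells. CYP26B1, which breaks down retinoic acid, changed by 3.40 (SE 0.38, adjusted p = 0.000691), and HEY1, a repressor induced by Notch, by 3.09 (SE 0.45, adjusted p = 0.00365). CALCRL, a receptor component for calcitonin gene-related peptide and adrenomedullin, was uneven. CALCRL stood at 0.975, 1.03 and 1.02 CPM in the shNT libraries and 11.2, 2.95 and 11 CPM in the shNR4A2 libraries. Its call (3.05, SE 0.51, adjusted p = 0.0139) was lost when any 1 of the shNT libraries was left out, as was that of C22orf42.

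Among the lower genes the smallest adjusted p belonged to SEZ6L2, HPRT1, KCNQ5, LEPROT, TBC1D5, ERAP1, PCYOX1, LINC01088, ALX1 and HUNK. SEZ6L2 was at 169, 170 and 160.3 CPM with the non-target hairpin and at 48.9, 46.1 and 49.8 CPM with the hairpin against NR4A2. SEZ6L2 was thus lower in each of the 3 shNR4A2 libraries, with a change of -1.78 (SE 0.09, adjusted p = 2.46e-06). HPRT1 encodes the purine salvage enzyme that is often taken as a reference transcript in quantitative PCR. HPRT1 measured 54.8, 60.7 and 61.4 CPM in shNT cells and 14.9, 14.4 and 12.5 CPM in shNR4A2 cells. The change was -2.08 (SE 0.11, adjusted p = 4.26e-06), which left 23.7% of the shNT level. The potassium channel gene KCNQ5 changed by -2.31 (SE 0.13, adjusted p = 7.39e-06) and the kinase gene HUNK by -2.94 (SE 0.27, adjusted p = 0.000244). HUNK stood at 4.16, 5.03 and 3.51 CPM in the shNT libraries and 0.514, 0.58 and 0.53 CPM in the shNR4A2 libraries. TBC1D5, a Rab GTPase-activating protein, changed by -1.40 (SE 0.11, adjusted p = 9.02e-05), and PCYOX1, prenylcysteine oxidase, by -1.67 (SE 0.14, adjusted p = 0.000103). At a mean of at least 1 CPM, the other large decreases were in ADGRG3, ENSG00000229407, FAM163A, IGSF10, PCDHB13, ENSG00000226767 and NUDT16L2P, between -2.46 and -1.91 on the log2 scale, in genes whose shNT means were at most 11.6 CPM.

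Genes of antigen presentation through MHC class I showed 9 calls among 20 members (45%). Class I molecules carry peptides, cut by the proteasome and moved by the TAP transporter, to the surface of all nucleated cells. Of the 20 genes of this list 8 were higher, 1 was lower and 11 were not called, against 6.21% called among all genes, and the median log2 fold change was 0.39 against -0.000533 for all genes. With the replicate block 15 were higher and 1 lower, against 13.4% and 11.3% of all genes. The heavy chain genes HLA-F, HLA-B, HLA-C and HLA-E were among the higher ones, as were the immunoproteasome subunit PSMB9, the proteasome activator PSME2 and the transporter subunit TAP2. HLA-F had the largest change. HLA-F was at 1.33, 0.974 and 1.17 CPM with the non-target hairpin and at 5.66, 5.11 and 5.94 CPM with the hairpin against NR4A2. That is 2.26 (SE 0.22, adjusted p = 0.000326), from at least 19 counts in each library. HLA-B measured 533, 453 and 488 CPM in shNT cells and 960, 717 and 756 CPM in shNR4A2 cells. HLA-B changed by 0.73 (SE 0.12, adjusted p = 0.00656), HLA-C by 0.63 (SE 0.13, adjusted p = 0.0153) and HLA-E by 0.44 (SE 0.11, adjusted p = 0.0371). In HLA-B and HLA-C the lowest shNR4A2 library was above the highest shNT library by a margin smaller than the range of the shNR4A2 libraries. The light chain B2M (0.25, SE 0.10, adjusted p = 0.199) and TAP1 (0.42, SE 0.15, adjusted p = 0.155) did not pass the test without the block and passed it with the block (B2M 0.24, SE 0.08, adjusted p = 0.0149, TAP1 0.40, SE 0.07, adjusted p = 1.68e-05). The member that fell was ERAP1, the aminopeptidase that trims peptides for class I in the endoplasmic reticulum. ERAP1 stood at 76, 84.2 and 75.9 CPM in the shNT libraries and 34.3, 36.6 and 36.4 CPM in the shNR4A2 libraries. Its change was -1.13 (SE 0.09, adjusted p = 0.000103). The calls of HLA-F, HLA-B and ERAP1 held when any 1 of the 6 libraries was left out, whereas that of TAP2 was lost without each of them. The call of HLA-C was lost in 2 of the 6 fits that left out 1 library, that of PSMB9 in 4, and those of HLA-E and PSME2 in 5. Class I heavy chains resemble each other closely, so that the division of reads among them is uncertain.

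The promoter windows of 4 called genes of the class I and interferon lists, 3 higher and 1 lower, are shown as examples because these windows hold the core of the interferon-stimulated response element (ISRE), searched on both strands as GAAA, any 2 bases, GAAA. Each is the stretch of 250 bases before the RefSeq start (GRCh38.p14), written 5′ to 3′ on the strand of the gene, with the match in capitals. HLA-F comes from the plus strand of chr6:29723184-29723433, with the match read on the opposite strand, starting 156 bases before the start. PSME2 comes from the minus strand of chr14:24146611-24146860, with the match 28 bases before the start. GBP1 comes from the minus strand of chr1:89065209-89065458, with the match read on the opposite strand, 127 bases before the start. PLSCR1, which was lower, comes from the minus strand of chr3:146544596-146544845, with the match 91 bases before the start.
HLA-F: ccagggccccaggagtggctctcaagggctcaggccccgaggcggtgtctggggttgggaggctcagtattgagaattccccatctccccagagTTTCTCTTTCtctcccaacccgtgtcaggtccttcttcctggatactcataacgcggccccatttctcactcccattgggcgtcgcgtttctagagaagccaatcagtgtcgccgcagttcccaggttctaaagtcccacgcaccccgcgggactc
PSME2: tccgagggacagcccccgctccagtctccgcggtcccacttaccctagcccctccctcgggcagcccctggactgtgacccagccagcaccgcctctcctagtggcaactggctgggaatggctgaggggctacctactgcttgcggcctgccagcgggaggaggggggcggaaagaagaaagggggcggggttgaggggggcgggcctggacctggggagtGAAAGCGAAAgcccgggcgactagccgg
GBP1: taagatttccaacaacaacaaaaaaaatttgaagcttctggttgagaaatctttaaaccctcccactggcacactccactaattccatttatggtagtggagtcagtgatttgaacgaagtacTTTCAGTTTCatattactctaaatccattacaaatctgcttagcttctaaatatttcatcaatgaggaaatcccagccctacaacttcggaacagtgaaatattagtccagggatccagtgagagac
PLSCR1: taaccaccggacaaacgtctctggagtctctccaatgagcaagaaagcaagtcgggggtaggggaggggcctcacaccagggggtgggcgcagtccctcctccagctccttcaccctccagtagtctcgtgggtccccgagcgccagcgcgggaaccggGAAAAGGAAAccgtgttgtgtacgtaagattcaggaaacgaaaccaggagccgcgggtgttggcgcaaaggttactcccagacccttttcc
The core was also found for EPSTI1 and TAP2, which were higher, and for ERAP1, which was lower and whose match lies just after the start, so that both lower genes of these lists held it. Across all genes, windows of 250 bases before to 50 bases after a RefSeq start were found for 11989 of the tested genes (67.7%). The ISRE core was in a window of 5.1% of the called higher genes (24 of 471), 4.01% of the called lower genes (13 of 324) and 4.01% of all genes with a window, with a 95% exact binomial interval of 3.29% to 7.49% for the higher ones. The NBRE, the element that NR4A receptors bind as monomers (AAAGGTCA), was in 0.849% of higher, 0.617% of lower and 1.17% of all genes. The cyclic AMP response element (CRE, TGACGTCA) was in 2.55%, 4.32% and 3.55%. An ISRE core can run into an NBRE, and the NBRE and the CRE both end in GTCA. All intervals for called genes (0.232% to 2.16% and 0.0748% to 2.21% for the NBRE, 1.32% to 4.41% and 2.38% to 7.14% for the CRE) included the share of all genes. These shares describe the letters in these windows and say nothing of binding.

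Class II molecules present peptides taken up from outside, under the control of CIITA. Of 20 genes tested in this list 4 were higher and none lower (20% called, against 6.21% of all genes), with a median of 0.39. With the block 7 were higher and 1 lower, against 13.4% and 11.3% of all genes. The 4 were HLA-DRB1, HLA-DPA1, HLA-DRB5 and HLA-DRA. HLA-DRB1 was at 74.8, 64.6 and 65.6 CPM with the non-target hairpin and at 144, 107 and 118 CPM with the hairpin against NR4A2. All libraries of shNR4A2 cells were above those of shNT cells, with 0.85 (SE 0.12, adjusted p = 0.00245). HLA-DPA1 changed by 1.72 (SE 0.32, adjusted p = 0.0112), HLA-DRA by 0.84 (SE 0.19, adjusted p = 0.0307) and HLA-DRB5, whose reads can hardly be separated from those of HLA-DRB1, by 0.78 (SE 0.15, adjusted p = 0.0117). CIITA itself stood at 0.77 to 1.67 CPM in these libraries and overlapped between the lines, with 0.52 (SE 0.33, adjusted p = 0.417), and the invariant chain CD74 gave 0.35 (SE 0.14, adjusted p = 0.169). The HLA-DRB1 call held when any 1 library was left out. That of HLA-DPA1 was lost without shNT replicate 3, that of HLA-DRB5 without shNT replicate 2 or 3, and that of HLA-DRA without each shNT library and without shNR4A2 replicate 1.

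Of 52 interferon-stimulated genes, 7 were higher, 1 was lower and 44 were not called (15.4% called, against 6.21% of all genes), with a median log2 fold change of 0.255. With the block 18 were higher and 2 lower, against 13.4% and 11.3% of all genes. The guanylate-binding proteins GBP2 and GBP1 had the largest changes among the called genes. GBP2 measured 42.8, 34.8 and 45.6 CPM in shNT cells and 109.7, 77.4 and 122 CPM in shNR4A2 cells. GBP2 changed by 1.33 (SE 0.17, adjusted p = 0.00245) and GBP1, at 0.923 to 3.02 CPM in these libraries, by 1.14 (SE 0.29, adjusted p = 0.0421). IFI35 (0.52, SE 0.11, adjusted p = 0.0173), CMPK2 (0.49, SE 0.11, adjusted p = 0.0219), EPSTI1 (0.86, SE 0.19, adjusted p = 0.0259), the helicase-like sensor ZNFX1 (0.52, SE 0.12, adjusted p = 0.0265) and the transcription factor IRF1 (0.37, SE 0.09, adjusted p = 0.0429) were also higher, and the scramblase PLSCR1 was lower (-0.58, SE 0.12, adjusted p = 0.0198). The antiviral effectors IFIT1 and MX1 were not called with or without the block, whereas ISG15, OASL, IFIT3, OAS1, ISG20 and BST2 were called higher with the block only. IFIT1 stood at 12.9, 15.4 and 19.8 CPM in the shNT libraries and 13.4, 12.1 and 36.5 CPM in the shNR4A2 libraries. shNR4A2 replicate 3 stood apart, and the log2 fold change of IFIT1 was 0.38 (SE 0.45, adjusted p = 0.707), with values from -0.33 to 0.65 as each library was left out. MX1 gave 0.09 (SE 0.21, adjusted p = 0.868), with values from -0.19 to 0.30 in the same way. Of the 8 calls, that of GBP2 held when any 1 library was left out, and the others were lost without at least 3 of the 6.

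The list of interferons, their receptors and upstream sensors had 6 higher and 1 lower gene of 18 tested (38.9% called, against 6.21% of all genes). The counts were the same with the block, which called 24.7% of all genes. STING1, the adaptor that relays cytosolic DNA sensing to type I interferon, was lower. STING1 was at 254, 282 and 249 CPM with the non-target hairpin and at 126, 168 and 119 CPM with the hairpin against NR4A2. The libraries did not overlap, and the change was -0.92 (SE 0.13, adjusted p = 0.0025). Higher were the endosomal RNA sensors TLR8 (1.68, SE 0.28, adjusted p = 0.00617) and TLR7 (0.91, SE 0.22, adjusted p = 0.0409), the myeloid transcription factor IRF8 (0.62, SE 0.10, adjusted p = 0.00628) and the receptor chains IFNAR2 (0.52, SE 0.10, adjusted p = 0.0145), IFNGR1 (0.60, SE 0.14, adjusted p = 0.0262) and IFNGR2 (0.56, SE 0.14, adjusted p = 0.0414). IRF8 measured 351, 370 and 303 CPM in shNT cells and 478, 541 and 546 CPM in shNR4A2 cells. Interferon beta itself (IFNB1) stood at 0.513 to 1.16 CPM and overlapped between the lines, with 0.38 (SE 0.38, adjusted p = 0.625). The calls of STING1, TLR8 and IRF8 held when any 1 library was left out. Those of TLR7, IFNAR2, IFNGR1 and IFNGR2 were lost without shNR4A2 replicate 1 and without at least 2 of the shNT libraries.

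Among 30 tested inflammatory cytokine and growth factor genes 5 were higher and none lower (16.7% called, against 6.21% of all genes), with a median of 0.375. With the block 17 were higher and 2 lower, against 13.4% and 11.3% of all genes. PDGFB, a growth factor for mesenchymal cells, had the smallest adjusted p. PDGFB stood at 1.28, 1.08 and 1.02 CPM in the shNT libraries and 6.43, 5.22 and 6.52 CPM in the shNR4A2 libraries. All shNR4A2 libraries were above all shNT libraries, with 2.42 (SE 0.22, adjusted p = 0.000225). In shNR4A3 cells at 5% CO2 with LPS, PDGFB measured 2.778, 1.933 and 2.065 CPM, above the shNT and below the shNR4A2 libraries. The TNF family ligand TNFSF15 changed by 2.33 (SE 0.28, adjusted p = 0.00329). TNFSF15 was at 8.62, 5.69 and 6.72 CPM with the non-target hairpin and at 49.1, 23 and 33.6 CPM with the hairpin against NR4A2. The interleukin-7 receptor chain IL7R (1.94, SE 0.26, adjusted p = 0.00801), the vasoconstrictor peptide gene EDN1 (2.38, SE 0.44, adjusted p = 0.0107) and interleukin-6 (1.69, SE 0.36, adjusted p = 0.0215) completed the group. IL6 measured 2.21, 0.769 and 1.41 CPM in shNT cells and 6.17, 3.22 and 4.83 CPM in shNR4A2 cells. In shNR4A3 cells at 5% CO2 with LPS it measured 8.275, 2.963 and 4.44 CPM, so a level above the shNT mean was not particular to shNR4A2 cells. IL6 was low in every library, and its call was lost without shNT replicate 2, shNT replicate 3 or shNR4A2 replicate 1, that of EDN1 without shNT replicate 3. The abundant cytokines TNF and IL1B were not called. TNF stood at 1097, 1034 and 997 CPM in the shNT libraries and 1185, 1016 and 1053 CPM in the shNR4A2 libraries. These overlapped, with 0.06 (SE 0.09, adjusted p = 0.77) for TNF. IL1B was at 4500, 3248 and 3485 CPM with the non-target hairpin and at 7822, 4527 and 4765 CPM with the hairpin against NR4A2. IL1B did not overlap between the lines, but its spread within a line was wide and the change was 0.61 (SE 0.22, adjusted p = 0.153), or 0.58 (SE 0.09, adjusted p = 4.17e-07) with the block. The interleukin-1 receptor antagonist gene IL1RN followed the same pattern, with 0.89 (SE 0.22, adjusted p = 0.052) without and 0.87 (SE 0.09, adjusted p = 1.93e-12) with the block.

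No chemokine gene was called by edgeR among 20 tested, with a median of 0.184, and with the block 6 were higher and 2 lower, where 24.7% of all genes were called. CXCL8 measured 3974, 3326 and 2873 CPM in shNT cells and 5068, 3250 and 2953 CPM in shNR4A2 cells. The neutrophil attractant CXCL8 gave 0.15 (SE 0.20, adjusted p = 0.735), and CCL5 0.28 (SE 0.12, adjusted p = 0.2) without and 0.27 (SE 0.07, adjusted p = 0.00203) with the block. Of the 16 tested genes of the LPS receptor and its adaptors, TAB2, a scaffold of the kinase TAK1, was higher (0.66, SE 0.11, adjusted p = 0.0066), a share (6.25%) close to that of all genes (6.21%). TLR4 stood at 60.6, 54 and 42 CPM in the shNT libraries and 39.1, 36.4 and 26.6 CPM in the shNR4A2 libraries. TLR4 itself gave -0.61 (SE 0.17, adjusted p = 0.0628) and its co-receptor CD14 1.15 (SE 0.34, adjusted p = 0.103), and under the block TLR4 was lower (-0.61, SE 0.08, adjusted p = 8.14e-09) and CD14 higher (1.15, SE 0.12, adjusted p = 5.25e-12), among 5 higher and 2 lower genes. Among 18 NF-kB subunits and inhibitors, 3 modulators were higher, namely TNIP2 (0.56, SE 0.09, adjusted p = 0.00686) and TNIP3 (1.26, SE 0.27, adjusted p = 0.0375), which bind the deubiquitinase A20 or its partners, and the atypical inhibitor BCL3 (0.67, SE 0.14, adjusted p = 0.0201). That is 16.7% called, and with the block 7 were higher, against 13.4% of all genes. The main inhibitor NFKBIA gave 0.17 (SE 0.11, adjusted p = 0.422). The TNIP2 and TAB2 calls held when any 1 library was left out, that of BCL3 was lost without shNT replicate 2, shNT replicate 3 or shNR4A2 replicate 1, and that of TNIP3 was lost without each library other than shNR4A2 replicate 2.

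**Figure D3:**
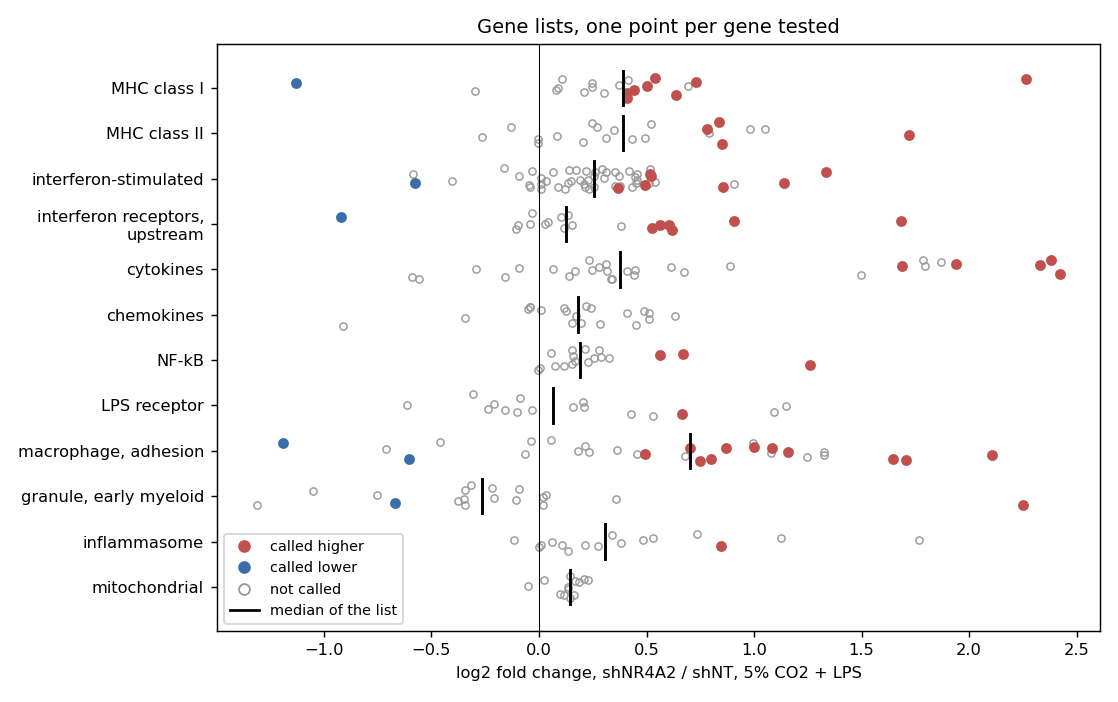
Log2 fold change between shNR4A2 and shNT cells at 5% CO2 with LPS for the tested members of 12 gene lists. Filled points passed the test (red higher, blue lower), open points did not, and black bars are list medians. The class I list has 8 higher points and 1 lower, the macrophage list reaches a median of 0.70, and the granule list lies to the left with a median of -0.27.

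The shares called among immediate-early (8%) and feedback genes (8.7%) were close to that of all genes (6.21%) without the block. Of 25 immediate-early transcription factors, EGR2 (0.75, SE 0.09, adjusted p = 0.000751) and the AP-1 subunit FOSL1 (0.71, SE 0.11, adjusted p = 0.00474) were higher. EGR2 was at 89.3, 93 and 90.4 CPM with the non-target hairpin and at 159.9, 142 and 155 CPM with the hairpin against NR4A2. With the block 10 were higher and 2 lower, against 13.4% and 11.3% of all genes. Of 23 phosphatase, mRNA decay and SOCS genes the MAP kinase phosphatase DUSP5 was higher (0.87, SE 0.14, adjusted p = 0.00617) and SOCS2, a brake on cytokine receptors, lower (-1.50, SE 0.29, adjusted p = 0.0134, lost without shNT replicate 2). Under the block 10 of these 23 genes were higher and 3 lower, against 13.4% and 11.3% of all genes. DUSP6 gave 1.12 (SE 0.30, adjusted p = 0.0879) without and 1.11 (SE 0.08, adjusted p = 9.02e-19) with the block, and DUSP1 0.78 (SE 0.22, adjusted p = 0.0797) and 0.79 (SE 0.09, adjusted p = 2.65e-11). Of 16 inflammasome genes pyrin (MEFV) was higher (0.85, SE 0.12, adjusted p = 0.0026), again 6.25%, and with the block 10 were higher, against 13.4% of all genes. NLRP3 gave 0.34 (SE 0.19, adjusted p = 0.365) without and 0.32 (SE 0.07, adjusted p = 0.000224) with the block. Of 14 eicosanoid genes, PTGS1, which encodes cyclooxygenase-1 (0.67, SE 0.09, adjusted p = 0.0025), thromboxane synthase TBXAS1 (0.79, SE 0.16, adjusted p = 0.0166) and the 5-lipoxygenase activating protein ALOX5AP (0.65, SE 0.16, adjusted p = 0.0369) were higher and 5-lipoxygenase itself (ALOX5, -0.44, SE 0.11, adjusted p = 0.0422) was lower. That is 28.6% called, and with the block 4 of the 14 eicosanoid genes were higher and 3 lower, against 13.4% and 11.3% of all genes. Of the 4 eicosanoid calls made without the block only that of PTGS1 held when any 1 library was left out.

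Macrophage and adhesion genes had 11 higher and 2 lower members of 29 tested, a median of 0.702 (44.8% called, against 6.21% of all genes), and under the block 19 higher and 3 lower, against 13.4% and 11.3% of all genes. The integrin chains ITGB2 (0.70, SE 0.10, adjusted p = 0.00246), ITGAL (1.08, SE 0.17, adjusted p = 0.00783) and ITGAX (0.49, SE 0.11, adjusted p = 0.0307) were higher. ITGB2 measured 862, 809 and 779 CPM in shNT cells and 1462, 1256 and 1253 CPM in shNR4A2 cells. The inhibitory Fc receptor FCGR2B (1.64, SE 0.23, adjusted p = 0.0026), the growth factor receptor CSF1R (0.87, SE 0.15, adjusted p = 0.0091), the scavenger receptors CD36 (1.16, SE 0.21, adjusted p = 0.0101) and MARCO (1.00, SE 0.26, adjusted p = 0.048), the lectin CD209 (2.11, SE 0.36, adjusted p = 0.0201), the hyaluronan receptor CD44 (0.80, SE 0.17, adjusted p = 0.0253) and the chemokine receptors CCR7 (1.71, SE 0.33, adjusted p = 0.0139) and CCR1 (0.75, SE 0.19, adjusted p = 0.0412) were higher. CSF1R stood at 98, 78.1 and 68.3 CPM in the shNT libraries and 175, 142 and 128 CPM in the shNR4A2 libraries. The gelatinase MMP9 (-1.19, SE 0.29, adjusted p = 0.0351) and the NAD-consuming enzyme CD38 (-0.60, SE 0.15, adjusted p = 0.0367) were lower. The calls of ITGB2, ITGAL, FCGR2B, CSF1R and CD36 held when any 1 library was left out, that of MARCO was lost without each of them, and the rest were lost without at least 2. On the other side, 5 of the 18 tested granule protease and early myeloid genes had a positive change and the median was -0.267. CD34, a progenitor marker, was higher from a low level (2.25, SE 0.41, adjusted p = 0.0101) and proteinase 3 (PRTN3) was lower, so that 11.1% of this list was called. PRTN3 was at 585, 809.8 and 878 CPM with the non-target hairpin and at 391, 544 and 488 CPM with the hairpin against NR4A2. The change of PRTN3 was -0.67 (SE 0.16, adjusted p = 0.0444), lost without shNT replicate 2 or 3 or shNR4A2 replicate 1 or 3. With the block 2 genes of this list were higher and 11 lower, neutrophil elastase (ELANE, -0.38, SE 0.08, adjusted p = 0.000126, against -0.38, SE 0.10, adjusted p = 0.051 without the block) among them.

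In the other pathways the share of called genes ranged from 0% to 17.4%, against 6.21% of all genes, or 24.7% with the block. None of 13 mitochondrially encoded genes was called by edgeR with or without the block, their median was 0.143, and their summed level was 13110 to 18440 CPM in shNT and 14130 to 22930 CPM in shNR4A2 libraries. None of 20 heat shock genes was called, and 2 were higher and 1 lower with the block, the latter being HSPA4L (-0.80, SE 0.10, adjusted p = 2.86e-09). The mitochondrial transcription factor TFAM was lower. TFAM measured 61.6, 62.2 and 66.9 CPM in shNT cells and 44.6, 43.4 and 40.9 CPM in shNR4A2 cells. The libraries did not overlap, with -0.56 (SE 0.09, adjusted p = 0.00617). Of 22 Wnt genes FZD7 (0.90, SE 0.11, adjusted p = 0.00153), TCF7L2 (0.96, SE 0.20, adjusted p = 0.0199) and WNT7B (1.85, SE 0.37, adjusted p = 0.0333) were higher, a share of 13.6%, and with the block 7 were higher and 1 lower. Of 23 cholesterol genes MSMO1 (0.91, SE 0.13, adjusted p = 0.0025), INSIG1 (0.80, SE 0.11, adjusted p = 0.00251) and SQLE (0.35, SE 0.09, adjusted p = 0.0423) were higher and SC5D (-0.91, SE 0.14, adjusted p = 0.00367) lower (17.4%), with 12 higher and 4 lower under the block. Of 24 glycolysis genes PDK4 (1.56, SE 0.30, adjusted p = 0.0121) and HK1 (0.55, SE 0.12, adjusted p = 0.0249) were higher (8.33%), with 9 higher under the block. Of 30 cell cycle genes the G1 cyclin CCND1 (1.29, SE 0.11, adjusted p = 0.000127) and the kinase inhibitor CDKN1A (0.90, SE 0.10, adjusted p = 0.000579) were higher (6.67%), with 5 higher and 2 lower under the block, close to the shares of all genes. CCND1 stood at 27.5, 26.3 and 25.7 CPM in the shNT libraries and 73.2, 59.2 and 60.8 CPM in the shNR4A2 libraries. None of the 4 tested genes among 11 textbook NR4A targets was called with or without the block. RET, a neuronal target, gave 0.07 (SE 0.11, adjusted p = 0.799), with values from -0.05 to 0.15 as each library was left out. Among 40 tested genes that the study's paper names, 3 were higher (SLC39A14, WNT7B and SLC6A6) and 2 lower (TFAM and CD38), and with the block 4 were higher and 9 lower. The zinc importer SLC39A14 changed by 0.47 (SE 0.08, adjusted p = 0.0096) and the taurine transporter SLC6A6 by 0.66 (SE 0.17, adjusted p = 0.0489). The calls of TCF7L2, WNT7B, SQLE and SLC6A6 were lost in 4 of the 6 fits that left out 1 library, those of HK1 in 3, and those of PDK4 and SLC39A14 in 1. The list of genes from the paper was drawn from results on this series and is no independent evidence.

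Genes that LPS induces were treated as a class. It held the 619 genes that rose in shNT cells at 10% CO2 with LPS against without LPS (adjusted p under 0.05 in edgeR and a log2 fold change of at least 2), in libraries that are not part of the comparison described here. Of these, 79 (12.8%) were higher and 4 (0.646%) lower in shNR4A2 cells at 5% CO2 with LPS, against 3.84% and 2.37% of all genes, and 495 had a positive change. The median log2 fold change of the class was 0.437 against -0.000533 for all genes. With the block 271 of the 619 were higher and 28 lower, against 13.4% and 11.3% of all genes. Without LPS, 29 of the same genes were higher and 10 lower in shNR4A2 cells, with a median of 0.18, against 3.22% and 2.47% of all genes. The 79 higher genes became 47, 32 and 34 without shNT replicate 1, 2 or 3, 38 and 169 without shNR4A2 replicate 1 or 2, and 119 in DESeq2. When the class was defined in shNR4A3 cells at 5% CO2, it held 659 genes, of which 96 were higher and 4 lower. PDGFB, EGR2, GBP2 and PGLYRP2 were among the higher members with the smallest adjusted p, and the 4 lower members were NR4A2, CCN2, C3AR1 and HINT3. PGLYRP2, a peptidoglycan amidase, rose from a low level (2.72, SE 0.39, adjusted p = 0.00273). CCN2, the matricellular connective tissue growth factor, was abundant. CCN2 was at 1268, 1145 and 950.3 CPM with the non-target hairpin and at 482, 408 and 239.7 CPM with the hairpin against NR4A2. The libraries were spread widely within each line but did not overlap, with -1.57 (SE 0.25, adjusted p = 0.0123), a call that was lost without shNR4A2 replicate 2. The complement receptor C3AR1 changed by -0.67 (SE 0.13, adjusted p = 0.0157) and was lost without shNT replicate 1 or 3, and HINT3 by -0.37 (SE 0.10, adjusted p = 0.0442) and was lost without each library.

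**Figure D4:**
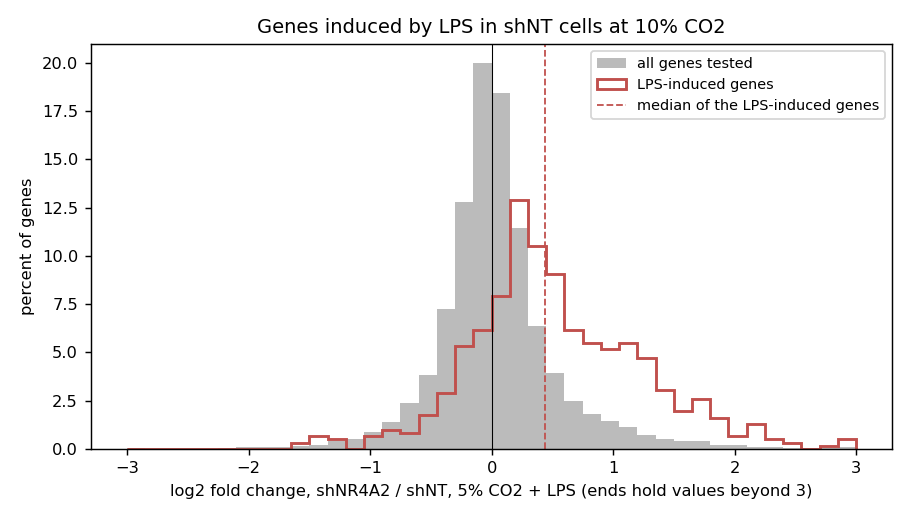
Distribution of the log2 fold change between shNR4A2 and shNT cells at 5% CO2 with LPS, as percent of genes, for all 17720 genes tested (grey) and for the 619 genes induced by LPS in shNT cells at 10% CO2 (red outline). The induced genes are shifted to the right, with a median of 0.437 (dashed line).

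The same contrast without LPS called 1008 genes (5.69%), or 3803 (21.5%) with the replicate block, and at 10% CO2 with LPS it called 3344 (18.9%), with no library shared with the comparison above. Leaving out shNT replicate 2 or 3 lowered the first count to 587 and 507, and leaving out replicate 3 of shNT or shNR4A2 lowered the second to 1897 and 2072. At 10% CO2 with LPS, 971 of the 1101 genes were called in the same direction (88.2% of the 1101 and 29% of the 3344), none in the opposite direction, and 1099 had the same sign. Without LPS, 606 were called in the same direction (55% of the 1101 and 60.1% of the 1008), none in the opposite one, and 1072 had the same sign. The macrophage list without LPS had 10 higher and 1 lower gene (median 0.587), against 3.22% and 2.47% of all genes. Class II had 5 higher and 0 lower (median 0.385), and class I 5 higher and 1 lower (median 0.318). Interferon-stimulated genes had 3 higher and 1 lower (median 0.164). Shifts of these lists were thus also present without LPS. AKR1C2 differed by 3.49 (SE 0.12, adjusted p = 1.12e-08) without LPS and 3.70 (SE 0.09, adjusted p = 1.24e-10) at 10% CO2 with LPS, and HPRT1 by -1.86 (SE 0.12, adjusted p = 5.64e-06) and -1.91 (SE 0.10, adjusted p = 2.29e-07). HLA-F differed by 2.56 (SE 0.26, adjusted p = 0.000168) and 2.35 (SE 0.22, adjusted p = 1.80e-05), and STING1 by -0.69 (SE 0.13, adjusted p = 0.0076) and -1.04 (SE 0.13, adjusted p = 0.000347). TNFSF15 gave 0.75 (SE 0.39, adjusted p = 0.318) without LPS and 2.29 (SE 0.13, adjusted p = 3.28e-07) at 10% CO2 with LPS.

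**Figure D5:**
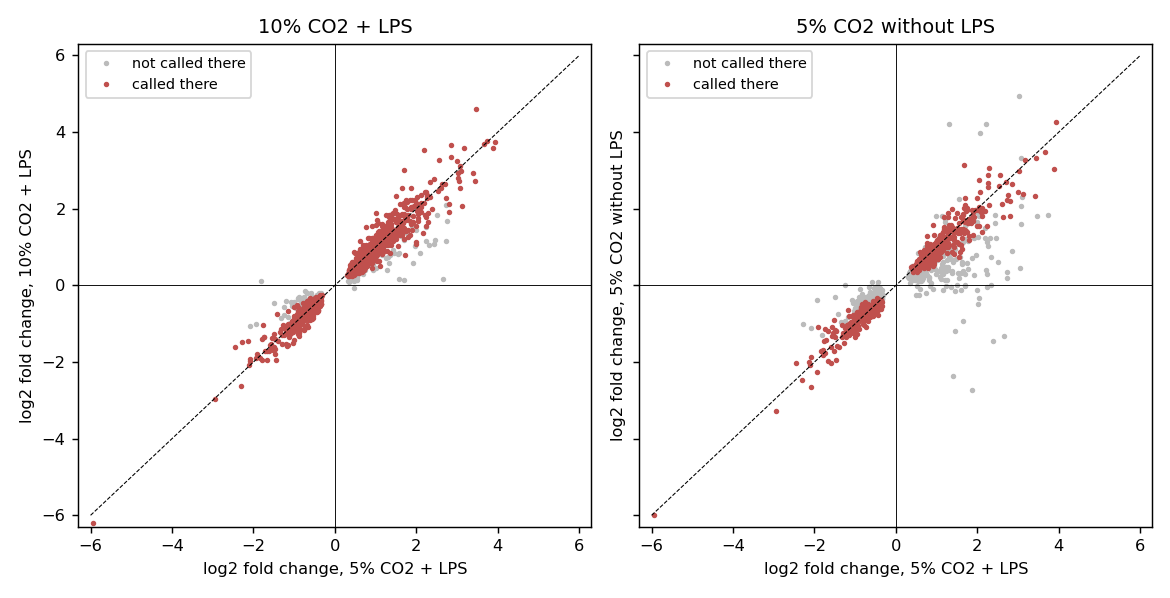
Log2 fold change between shNR4A2 and shNT cells for the 1101 genes called at 5% CO2 with LPS (x axis) against the same contrast at 10% CO2 with LPS (left) and at 5% CO2 without LPS (right), with the line of equal change dashed. At 10% CO2 1099 of the points have the same sign as at 5%, and without LPS 1072 do, with more points near or across 0.

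Whether the effect of the hairpin differed between cells with and without LPS was tested as an interaction over 12 libraries. No gene was called by edgeR (0 of 17720, 0%), and MYC was among the 2 genes that DESeq2 called. In edgeR 392 genes had an unadjusted p under 0.05, fewer than evenly spread p-values would give. The absence of calls therefore does not show that the effects were equal. With the replicate block 1062 genes had an unadjusted p under 0.05. Of these, 66 (0.372% of all genes) were called, 49 with a higher and 17 with a lower log2 fold change in the presence of LPS. Of those with the smallest adjusted p, 9 are named here, picked with their values in view. RCAN1, an inhibitor of calcineurin, had the smallest. RCAN1 measured 363, 317 and 595 CPM in shNT cells and 178, 137 and 312 CPM in shNR4A2 cells. The shNR4A2 libraries lay below the shNT library of the same replicate number in each pair, with a log2 fold change of -1.05 (SE 0.07, adjusted p = 1.32e-19) with LPS and 0.29 (SE 0.08, adjusted p = 0.0175) without, and a difference of -1.34 (SE 0.10, adjusted p = 4.59e-09). MYC went the other way. MYC stood at 51.7, 39.1 and 47.8 CPM in the shNT libraries and 86.3, 47.8 and 63.5 CPM in the shNR4A2 libraries. It was higher with LPS (0.49, SE 0.08, adjusted p = 1.99e-06) and lower without (-0.62, SE 0.06, adjusted p = 1.62e-06), a difference of 1.11 (SE 0.10, adjusted p = 3.46e-07). In shNR4A2 cells without LPS, MYC stood at 200 ± 5.59 CPM (SD, n = 3), and with LPS at 65.9 ± 19.4 CPM. With LPS at 5% CO2, shNR4A3 cells held 61.4 ± 16.4 CPM of MYC against 46.2 ± 6.43 CPM in shNT cells (SD, n = 3). A MYC level with LPS above the shNT mean was thus not particular to shNR4A2 cells. Without LPS, shNR4A3 cells held 292 ± 11.5 CPM and shNT cells 309 ± 17 CPM of MYC. OTUD1, a deubiquitinase, had a difference of 1.26 (SE 0.15, adjusted p = 3.83e-05), GPR132 of 0.83 (SE 0.10, adjusted p = 3.58e-05), the matrix protein gene THBS1 of 1.11 (SE 0.13, adjusted p = 0.000104), MARCKS of 0.97 (SE 0.12, adjusted p = 0.000213) and the activin receptor ACVR2A of 1.01 (SE 0.14, adjusted p = 0.000213). PHLDA1 and GCNT1 had negative differences, of -0.90 (SE 0.12, adjusted p = 0.000127) and -0.91 (SE 0.13, adjusted p = 0.000617). Without the block the smallest adjusted p of these 9 differences was 0.855, that of MYC and PHLDA1 (edgeR). Without shNR4A2 replicate 2 at 5% CO2 with LPS, 8 genes were called without the block.

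The effect of the hairpin with LPS was also compared between 10% and 5% CO2. No gene was called by edgeR (0 of 17720, 0%), and DESeq2 called none. In edgeR 458 genes had an unadjusted p under 0.05, again fewer than evenly spread p-values would give, against 1287 genes with the replicate block. With the replicate block 5 (0.0282%) were called, of which SLC12A7 (log2 difference 0.52, SE 0.09), NAB2 (0.52, SE 0.10), RCAN1 (0.66, SE 0.10) and ENSG00000228477 (0.85, SE 0.14) had a higher and GPR183 (-0.74, SE 0.13) a lower log2 fold change at 10% CO2. These 5 were picked with their values in view.

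The shNR4A3 line, treated in the same way, shows how far a hairpin against the related receptor gave other values. The direct comparison of shNR4A2 with shNR4A3 cells at 5% CO2 with LPS called 398 genes (2.25%), or 3810 (21.5%) with the replicate block, and 129 to 264 as each library was left out. That of shNR4A3 with shNT cells called 958 (5.41%), or 3312 (18.7%) with the block and 419 to 1649 as each library was left out, and it shares the shNT libraries with the comparison above, so its values are given side by side only. In shNR4A3 cells NR4A2 was at 56.6 ± 11.8 CPM (SD, n = 3), and the direct test of shNR4A2 against shNR4A3 cells gave -1.15 (SE 0.21, adjusted p = 0.034). AKR1C2 differed from shNT cells by 3.65 (SE 0.09, adjusted p = 6.19e-09) in shNR4A2 and by -0.15 (SE 0.11, adjusted p = 0.48) in shNR4A3 cells, with 3.80 (SE 0.14, adjusted p = 1.66e-06) between them. PTK2 (1.99, SE 0.13, adjusted p = 8.34e-05) and POU4F2 (4.39, SE 0.30, adjusted p = 8.47e-05) were likewise higher in shNR4A2 cells, and SEZ6L2 (-1.81, SE 0.08, adjusted p = 1.10e-05) and HPRT1 (-2.18, SE 0.11, adjusted p = 1.27e-05) lower, while shNR4A3 cells gave 0.03 (SE 0.07, adjusted p = 0.874) for SEZ6L2 and 0.10 (SE 0.09, adjusted p = 0.566) for HPRT1 against shNT cells. HLA-F also differed directly, by 1.94 (SE 0.21, adjusted p = 0.00167), with 0.32 (SE 0.28, adjusted p = 0.555) in shNR4A3 against shNT cells. FIGN, CKAP4, PRDM6, EPHA7 and IGFBP7 were among the smallest adjusted p of the direct comparison. FIGN (4.08, SE 0.28, adjusted p = 8.47e-05) and PRDM6 (-3.44, SE 0.17, adjusted p = 1.15e-05) gave 0.17 (SE 0.15, adjusted p = 0.565) and -0.03 (SE 0.22, adjusted p = 0.957) between shNR4A2 and shNT cells, against -3.91 (SE 0.25, adjusted p = 1.04e-05) and 3.40 (SE 0.17, adjusted p = 1.63e-06) between shNR4A3 and shNT cells. CKAP4 was lower in both lines against shNT cells, by -0.99 (SE 0.12, adjusted p = 0.00107) in shNR4A2 and -2.93 (SE 0.11, adjusted p = 1.55e-07) in shNR4A3 cells. EPHA7 (-0.91, SE 0.19, adjusted p = 0.0189) was lower in shNR4A2 and higher in shNR4A3 cells (1.73, SE 0.13, adjusted p = 3.77e-05), and IGFBP7 was higher in both (0.49, SE 0.10, adjusted p = 0.0193 and 2.04, SE 0.09, adjusted p = 6.32e-07), with direct differences of -2.64 (SE 0.14, adjusted p = 1.74e-05) and -1.54 (SE 0.08, adjusted p = 1.74e-05). The calls of EPHA7 and IGFBP7 between shNR4A2 and shNT cells were each lost in 3 of the 6 fits that left out 1 library. No direct difference was called for LYZ, NCAM1, CCND1 and ITGB2. LYZ was higher in both lines, by 1.76 (SE 0.09, adjusted p = 4.02e-06) and 2.29 (SE 0.13, adjusted p = 5.15e-06), with -0.54 (SE 0.14, adjusted p = 0.084) between them. NCAM1 gave 3.01 (SE 0.16, adjusted p = 3.87e-06) and 2.74 (SE 0.18, adjusted p = 1.16e-05), with 0.28 (SE 0.16, adjusted p = 0.443), and CCND1 1.29 (SE 0.11, adjusted p = 0.000127) and 1.12 (SE 0.09, adjusted p = 3.75e-05), with 0.16 (SE 0.10, adjusted p = 0.501). ITGB2 gave 0.70 (SE 0.10, adjusted p = 0.00246) and 0.75 (SE 0.08, adjusted p = 0.00043), with -0.05 (SE 0.11, adjusted p = 0.867).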

How the data were processed

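RNA of THP-1 lines was sequenced as polyadenylated RNA in 36 libraries. Per the labels and the study's methods, the authors used Trimmomatic (0.36) for trimming and STAR (2.5.2b) for alignment to GRCh38, and counted unique hits per gene with featureCounts of Subread (1.5.2). They deposited raw counts of reads per Ensembl gene. Which annotation release and strand option were used, and if the counting unit was a read or a pair, is not given in the sources used here. Symbols were matched for 56410 of 57500 identifiers (98.1%).

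Genes were kept by edgeR's filterByExpr (minimum count 10) over all 36 libraries, which left 17720. Each comparison was fitted on its own libraries with TMM factors and edgeR's quasi-likelihood test (edgeR 4.0.16, R 4.3.3), and genes with a Benjamini-Hochberg adjusted p under 0.05 were called. The study used DESeq2, which was run as an alternative (1.42.0). CPM and TPM were computed here. Standard errors are the log2 fold change divided by the root of F. The fit recovered known changes of at least 2-fold in simulated counts, tested before use. These were set in genes with a mean of at least 1 CPM and the same dispersion for every gene. Smaller changes, as in most of the called genes, were not simulated. The biological coefficient of variation was 13.5%, or 6.81% with a block, and replicates differed by more than counting noise.

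Replicate numbers come from the labels. Deviations of same-numbered libraries from their group means correlated at 0.181, 0.27 and 0.284 over all genes, against -0.223 to -0.0404 for unlike numbers. Over the 9220 genes with a mean of at least 10 CPM they correlated at 0.531, 0.729 and 0.715, against -0.538 to -0.106 for unlike numbers. Deviations within a group cancel, so positive like-numbered pairs make unlike pairs negative on average, and the negative values are no separate evidence. From the correlations of like numbers, the numbers were taken to pair the libraries, and a fit with the number as a block was run. Other alternatives were RLE factors, library size alone, other filters, 1 fit to all libraries, thinned counts, stricter thresholds and leaving out each library.

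Named genes were the 3 NR4A receptors, members of the gene lists, the 10 called genes with the largest change in each direction (mean of at least 1 CPM, groups not overlapping), the 10 with the smallest adjusted p in each direction, the 5 in each direction against shNR4A3, and up to 5 LPS-induced genes in each direction. The rules also asked for the 5 called genes of each interaction, but edgeR called none without the block. The interaction genes named above came from the fit with the block, outside these rules. The comparison, the gene lists and these rules were chosen with earlier results of these data known. Promoter windows are from RefSeq (GRCh38.p14). A few genes that these rules name are not reported here.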

Additional observations from a re-analysis of the deposited data

How the results depend on the processing

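With the replicate block, that is, with libraries paired by replicate number, the counts of called genes were 4369 for shNR4A2 against shNT at 5% CO2 with LPS, 3803 without LPS, 6161 at 10% CO2 with LPS (where the third pair correlated at 0.0694 only over all genes and at 0.347 over genes with a mean of at least 10 CPM), 66 and 5 for the differences of the effect by LPS and by CO2, 3810 against shNR4A3 and 3312 for shNR4A3 against shNT, with 271 higher and 28 lower LPS-induced genes. Of 154 named genes, 21 were called with the block only, and it changed no other call and no direction. One fit to all 36 libraries called 2212, 1791, 1441 (against shNR4A3) and 1727 (shNR4A3 against shNT) genes, with 142 and 7 LPS-induced genes. Without a filter the counts were 1834 in the first comparison, 19 and 2 for the differences, 1113 and 1737 for the shNR4A3 comparisons, and 164 and 9 LPS-induced genes. DESeq2 called 2 genes for the difference by LPS, 698 against shNR4A3 and 119 higher LPS-induced genes. An adjusted p of 0.01 left 353, 417, 1618, 120 and 354 genes in the 5 comparisons with calls, and a fold of at least 2 left 392, 356, 669, 160 and 322, with 78.6% of the 392 higher.

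With each library left out in turn, the counts ranged from 430 to 1543 (5% CO2 with LPS), 507 to 1221 (without LPS), 1897 to 3745 (10% CO2 with LPS), 0 to 8 and 0 to 0 (differences by LPS and CO2), 129 to 264 (against shNR4A3) and 419 to 1649 (shNR4A3 against shNT). The share of higher genes ranged from 60.4% to 66.4%, and LPS-induced genes from 32 to 169 higher and 3 to 5 lower. Of 121 named genes called, 67 stayed called in all 6 fits and 4 (HINT3, IRF1, MARCO and TAP2) in none. Direction turned in 6 uncalled genes, with ranges of -0.13 to 0.30 for CXCL8, -0.33 to 0.65 for IFIT1, -0.19 to 0.30 for MX1, -0.131 to 0.0766 for PRDM6, -0.048 to 0.148 for RET and -0.0111 to 0.108 for TNF. The cause of these shifts was not tested. With 3 libraries a group, differences within the spread of replicates were not detectable, and genes near 1 CPM rest on few counts.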
